A study of Mus musculus with 18 samples.

Results

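The circadian clock genes described here are Per1, Per2, Per3, Cry1, Cry2, Arntl, Clock, Nr1d1, Nr1d2 and Dbp, 10 of the 55453 gene symbols in the count table of mouse cardiac fibroblasts. They were taken by symbol, as a set chosen with earlier results of these data known. All 10 were among the 16170 genes with enough reads to be tested. Nr1d1 and Dbp were higher at the later ages: averaged over 3 groups of each age, Nr1d1 rose from 38.2 to 109 CPM (counts scaled to library size) and Dbp from 12.0 to 45.1 CPM, and Cry2 rose from 66.4 to 113 CPM, a call that 15 of 18 fits without a library lost. The Dbp call was lost when 5 libraries with few long transcripts were left out. After resection alone no member was called between the ages, where 0.86% of all tested genes were called, and Nr1d1 differed by 0.25 on the log2 scale. None of the 10 genes passed the test between resected and sham-operated hearts at either age, as was so for all 16170 tested genes, although Nr1d1 was called at P10 when genes of low count were not filtered out. Clock was not called in any comparison, and its level followed the level of long transcripts in each library.

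The cell-autonomous clock is a loop in which a dimer of ARNTL (also called BMAL1) and CLOCK switches on the Per and Cry genes, whose proteins then repress that dimer over the course of a day. A second loop runs through the nuclear receptors REV-ERB alpha and beta, the products of Nr1d1 and Nr1d2, which repress Arntl, while ROR receptors activate it. Dbp encodes a PAR-bZIP transcription factor that is driven by the same dimer and passes the rhythm on to output genes. In fibroblasts with a running clock, Nr1d1 and Dbp transcripts peak far from the Arntl transcript, so that the level of each gene depends on the hour at which cells are taken.

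The cells were Tcf21-lineage fibroblasts from C57BL/6J mice carrying Tcf21-MerCreMer and Rosa-mTmG, in which tamoxifen at P1 (postnatal day 1) turned on GFP in cells that then used the Tcf21 promoter. The apical region of the ventricles was digested and its GFP-positive cells were sorted. There were 6 groups of 3 libraries: unoperated hearts taken at P2 (P2 baseline) or at P10 (P10 baseline), and hearts taken 3 days after sham surgery or apical resection performed at P2 or at P10, that is at P5 or P13. The P2 window is used below for the 9 libraries of the earlier groups and the P10 window for the 9 of the later groups. All groups shared the alleles, the strain, the tamoxifen injection and the sort. Only cells that recombined at P1 and their progeny carried GFP, and the labels do not give the sex, the number of pups behind a library or the hour of collection. Hour of collection and group therefore cannot be told apart, and separate libraries of a group were taken as replicates without a label that ties each to a separate animal.

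Library totals ran from 10462737 to 22980554 counts. The 7 fibroblast markers (Tcf21, Pdgfra, Col1a1, Col1a2, Dcn, Lum, Ddr2) summed to 22044 to 41806 CPM in the P2 window and 30947 to 48933 CPM in the P10 window, with means of 23895 and 40523 CPM in P2 and P10 baseline and 26246 and 38062 CPM in P2 and P10 sham, and none was at 0. Markers of other cells were lower. The 10 macrophage markers summed to 5.29 to 386 CPM in the P2 window and 17.0 to 985 CPM in the P10 window, with 1 of them at 0 in P2 baseline and 1 in P2 sham, and the 8 cardiomyocyte markers to 279 to 1319 and 143 to 683 CPM. The 6 endothelial markers summed to 164 to 382 and 247 to 467 CPM, the 6 mural markers to 281 to 694 and 496 to 1182 CPM, and the 6 proliferation genes to 556 to 1106 and 48.9 to 299 CPM. The part of these shifts in the age differences of the clock genes was not tested. A lower level in bulk RNA can come from fewer expressing cells or from less RNA per cell, which cannot be told apart here.

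Promoters of 4 members are shown because they hold the letters through which the loop is known to act, on genes whose levels are described below: Nr1d1 and Cry2, which were called between ages, Per3, which has a pair of D-boxes, and Arntl, which holds the core letters of a ROR and REV-ERB element. Each is 250 bases before to 50 after a RefSeq start site on GRCm38.p6, written 5′ to 3′ on the gene's strand, with the matched motif in capitals.
Nr1d1 promoter, chr11:98775328-98775627, minus strand: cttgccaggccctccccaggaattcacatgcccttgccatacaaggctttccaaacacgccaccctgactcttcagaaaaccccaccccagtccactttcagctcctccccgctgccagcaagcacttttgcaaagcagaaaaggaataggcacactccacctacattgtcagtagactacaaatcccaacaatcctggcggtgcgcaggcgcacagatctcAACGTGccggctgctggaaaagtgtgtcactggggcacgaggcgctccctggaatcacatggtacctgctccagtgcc
Cry2 promoter, chr2:92434020-92434319, minus strand: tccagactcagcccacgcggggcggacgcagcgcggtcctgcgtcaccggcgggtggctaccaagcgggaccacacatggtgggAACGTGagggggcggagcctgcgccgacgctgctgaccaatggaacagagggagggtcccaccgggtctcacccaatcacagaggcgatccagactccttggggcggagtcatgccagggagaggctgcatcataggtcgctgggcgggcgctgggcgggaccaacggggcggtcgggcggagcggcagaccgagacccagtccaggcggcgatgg
Per3 promoter, chr4:151044616-151044915, minus strand: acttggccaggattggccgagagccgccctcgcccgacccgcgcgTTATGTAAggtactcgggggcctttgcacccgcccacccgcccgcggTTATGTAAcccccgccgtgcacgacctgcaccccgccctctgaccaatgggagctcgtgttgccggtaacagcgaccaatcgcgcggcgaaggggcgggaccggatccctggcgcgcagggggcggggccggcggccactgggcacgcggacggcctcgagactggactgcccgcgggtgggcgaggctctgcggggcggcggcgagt
Arntl promoter, chr7:113207261-113207560, plus strand: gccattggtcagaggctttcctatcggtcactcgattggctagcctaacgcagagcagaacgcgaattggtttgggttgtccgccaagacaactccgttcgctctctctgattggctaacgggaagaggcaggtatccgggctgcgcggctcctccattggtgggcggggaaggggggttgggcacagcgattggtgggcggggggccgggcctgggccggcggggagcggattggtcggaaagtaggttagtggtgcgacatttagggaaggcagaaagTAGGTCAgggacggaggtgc
Both strands were searched for 4 motifs. The E-box, CACGTG, occurred in 7.15% of all 32851 promoters of this length. Its variant CACGTT, which reads AACGTG on the other strand, occurred in 4.68% of them. The D-box, TTANGTAA, occurred in 2.32% and the receptor element core, TAGGTCA with A or G as its second base, in 6.45%. No motif contains another. Of the 10 members, 9 had a promoter entry, some with more than 1 start site, so members holding any match are not counted against these shares. The Nr1d1 match began 28 bases before the start site and the Cry2 match 166 bases before it, while Per3 held the D-box letters at 205 and 158 bases before the start. In Arntl the match lay 30 bases after the second of 2 annotated start sites. Cry1 held CACGTG at 60 and AACGTG at 79 bases before its start and Per1 held CACGTG at 166 bases before. Nr1d2, Dbp and Clock held none of these letters in this window. A match is a description of the letters, not evidence of a bound site.

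Per length of exon, Nr1d1 stood highest with a mean of 23.9 CPM per kb over the 18 libraries, followed by Cry2 at 14.2, Cry1 at 11.8, Nr1d2 at 11.2, Dbp at 9.55 and Arntl at 7.23 CPM per kb. Per1 (6.28), Per2 (4.43), Per3 (2.66) and Clock (2.25 CPM per kb) were lower. The genes differed in how far libraries of the same group spread. The pooled SD of log2 CPM within groups was 0.23 for Cry1 and 0.29 for Arntl, against a median of 0.62 over all tested genes. It was 0.95 for Dbp, 1.02 for Per1 and 1.06 for Clock, so an age difference of a given size was harder to call in these 3 genes. Counting ignored strand, and part of the exon length of some members is shared with a gene on the other strand, namely 18.0% of Dbp with Sphk2, 8.55% of Nr1d1 with Thra and 4.67% of Cry2 with D930015M05Rik. Reads from such stretches cannot be assigned to either gene.

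**Figure D1:**
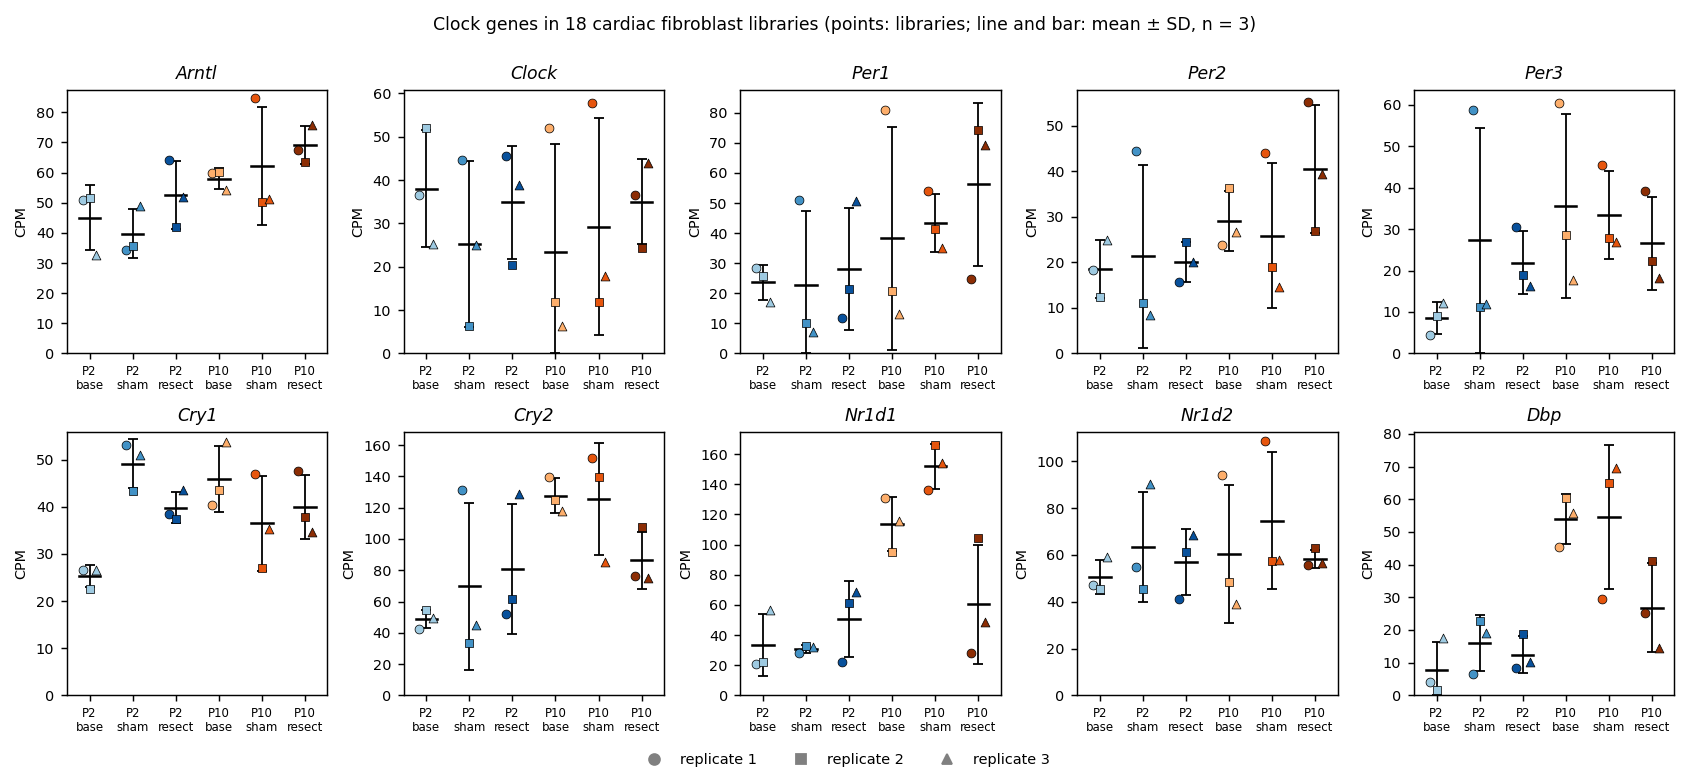
Level of each clock gene in CPM (vertical axis, linear, starting at 0) in the 6 groups (horizontal axis), with 1 point per library, marker shape for the replicate number, and a line and bar for the mean ± SD of 3 libraries. Nr1d1 and Dbp sit higher in P10 baseline and P10 sham than in all 3 P2 groups, while Clock, Per1, Per2 and Per3 spread widely within groups.

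Nr1d1 (chr11:98767932-98775333, minus strand, GRCm38) encodes REV-ERB alpha, the repressor of Arntl. Its level in P2 baseline was 20.9, 22.3 and 56.9 CPM, in P2 sham 27.9, 32.4 and 31.9 CPM, and in P2 resected 21.9, 61.1 and 68.8 CPM. In P10 baseline it was 131, 95.0 and 115 CPM, in P10 sham 136, 166 and 154 CPM, and in P10 resected 28.0, 104 and 48.6 CPM. Every library of P10 baseline and P10 sham was above all 9 libraries of the P2 window, whereas 2 of the 3 P10 resected libraries lay within the range of the P2 window. The share of all tested genes set apart in this way was not counted. Between the whole windows every member overlapped, while 1.15% of all tested genes did not overlap and were higher in the P10 window. In order of group means Nr1d1 ran from P2 sham (30.7 CPM ± 2.48, SD, n = 3), P2 baseline (33.4 ± 20.4), P2 resected (50.6 ± 25.1) and P10 resected (60.3 ± 39.5) to P10 baseline (114 ± 17.8) and P10 sham (152 ± 14.99). Neighbouring groups in this order overlapped in their libraries, except P10 baseline and P10 sham, whose log2 difference of 0.42 (SE 0.46, edgeR adjusted p = 0.97) did not pass.

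Dbp (chr7:45705088-45710203, plus strand) had the largest fitted age difference of the members between the baselines, between the resected groups and between the windows. Its levels were 3.96, 1.54 and 17.5 CPM in P2 baseline, 6.41, 22.6 and 18.9 CPM in P2 sham, and 8.27, 18.8 and 10.2 CPM in P2 resected. They were 45.4, 60.3 and 55.9 CPM in P10 baseline, 29.4, 65.1 and 69.6 CPM in P10 sham, and 25.1, 41.2 and 14.4 CPM in P10 resected. All 9 libraries of the P2 window were at or below 22.6 CPM and 8 of the 9 P10 window libraries were above it, the exception being P10 resected replicate 3. Within P2 baseline, replicate 3 was the highest library for both Dbp and Nr1d1 and the lowest for Arntl, at 32.6 CPM against 50.9 and 51.5 CPM in the other 2.

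The comparison of unoperated hearts at P10 and P2 asks how the clock genes differ between these ages without surgery. Nr1d1 was higher at P10 by 1.77 on the log2 scale (SE 0.47, edgeR's quasi-likelihood test, Benjamini-Hochberg adjusted p = 0.042 over all tested genes) and Dbp by 2.82 (SE 0.71, adjusted p = 0.030). These were the 2 members called of 10, where 4.38% of all tested genes were called. Per3, Cry1 and Cry2 did not pass, although their libraries did not overlap between the ages: the log2 differences were 2.05 (SE 0.62, adjusted p = 0.071), 0.86 (SE 0.25, adjusted p = 0.056) and 1.39 (SE 0.43, adjusted p = 0.077). Arntl differed by 0.37 (SE 0.27, adjusted p = 0.50), or by 0.18 without P2 baseline replicate 3. Libraries did not overlap for 6 of the 10 members, all higher at P10, against 10.3% of all tested genes in that direction. The median log2 difference of the 10 genes was 0.78, beside -0.03 over all tested genes, and 9 of 10 were above 0. DESeq2 called 5 members (Per3, Cry1, Cry2, Nr1d1 and Dbp), where it called 10.5% of genes. The calls of the 2 genes by edgeR were not secure against the choice of libraries. Dbp lost its call without P2 baseline replicate 1 or 2 or P10 baseline replicate 2 or 3, with an adjusted p of at most 0.14, and its log2 difference ran from 2.33 to 4.29 over the 18 fits without a library, the highest being that without P2 baseline replicate 3. Nr1d1 lost its call without any of 9 libraries, namely these 4, P10 baseline replicate 1, P2 sham replicate 3, P2 resected replicate 2 and P10 sham replicates 2 and 3, with an adjusted p of at most 0.18. Without P2 sham replicate 1, which enters this comparison only through estimates shared by all groups, Per3 (adjusted p = 0.018) and Cry2 (adjusted p = 0.016) were called as well. Fitted on the 6 baseline libraries alone, 1 member was called, Cry2 (1.42, adjusted p = 0.022), where 2.14% of genes were called.

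After sham surgery, Nr1d1 was again higher at the later age, by 2.31 (SE 0.48, adjusted p = 0.012). It was the 1 member called of 10, where 3.18% of all tested genes were called, and it was called whichever library was left out (adjusted p at most 0.049). Dbp differed by 1.77 (SE 0.68, adjusted p = 0.19), Arntl by 0.64 (SE 0.27, adjusted p = 0.24) and Cry2 by 0.85 (SE 0.42, adjusted p = 0.33). The Arntl difference was 0.35 without P10 sham replicate 1. The 3 libraries of each age did not overlap for Nr1d1, Dbp and Arntl, against 9.07% of all tested genes in that direction. The median over the 10 genes was 0.47, beside -0.07 over all tested genes, and it was 1.398 without P2 sham replicate 1, 0.29 without P2 sham replicate 2 and 0.18 without P10 sham replicate 1. Cry2 was called (log2 difference 1.68, adjusted p = 0.020) when P2 sham replicate 1 was left out, the library with 131 CPM of Cry2 beside 33.3 and 44.9 CPM in the other 2.

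After resection no member was called of 10, where 0.86% of all tested genes were called, and the smallest adjusted p was 0.67 by edgeR. No member had an unadjusted p under 0.05, as 8.77% of genes did, and DESeq2 called 0 members and 3.63% of genes. The log2 differences ran from 0.00 for Clock to 1.11 for Dbp (SE 0.67, adjusted p = 0.75), with Per2 at 1.01 (SE 0.54, adjusted p = 0.67) and Nr1d1 at 0.25 (SE 0.46, adjusted p = 0.99). Per2, a repressor of the ARNTL and CLOCK dimer, read 15.8, 24.5 and 20.1 CPM in P2 resected and 55.2, 27.0 and 39.4 CPM in P10 resected, the only member whose libraries did not overlap here, as for 10.6% of all tested genes in that direction. The median over the 10 genes was 0.27, or 0.46 without P2 resected replicate 3, beside -0.04 over all tested genes. The Nr1d1 difference turned to -0.11 without P2 resected replicate 1 and to -0.41 without P10 resected replicate 2.

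**Figure D2:**
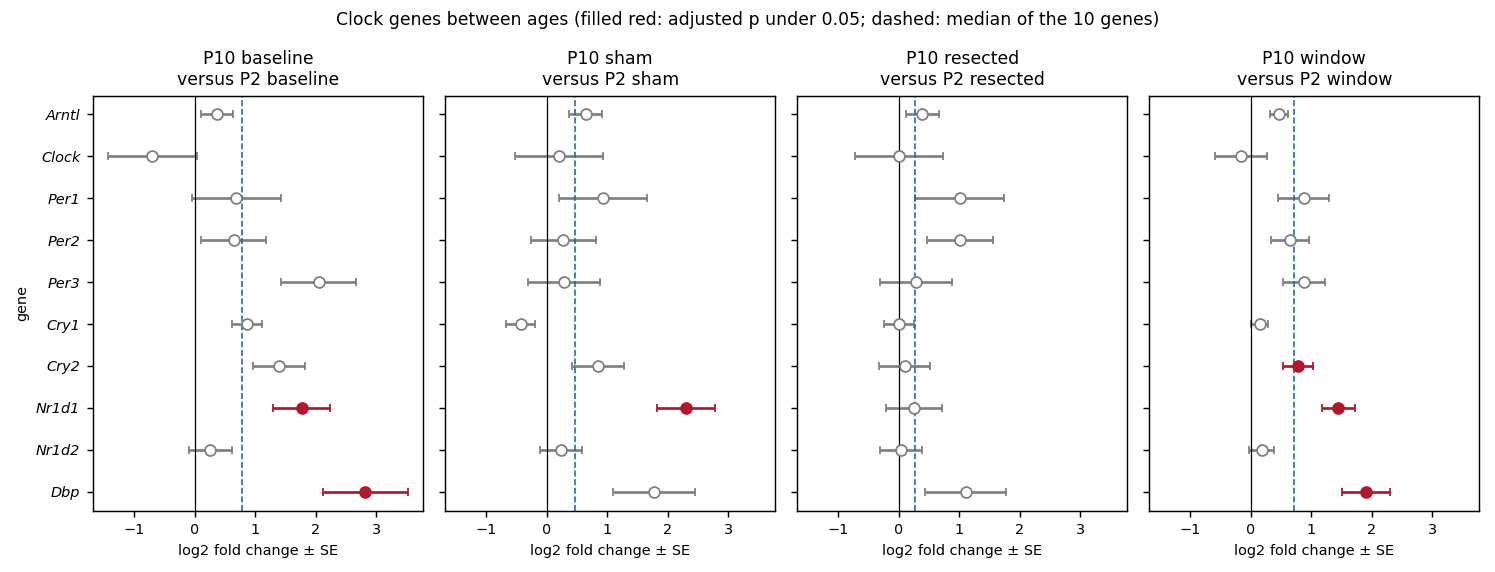
Fitted log2 fold change, later age over earlier age, with its standard error (horizontal axis), for each clock gene (vertical axis) in unoperated, sham-operated and resected hearts and over all 9 libraries of each window. Filled red points passed an adjusted p of 0.05 and the dashed line is the median of the 10 genes, which is 0.78, 0.47, 0.27 and 0.71 from left to right.

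Averaged over the 3 groups of each age, which uses the same libraries again, Nr1d1 rose by 1.44 (SE 0.27, adjusted p = 0.0015), Dbp by 1.90 (SE 0.39, adjusted p = 0.0031) and Cry2 by 0.78 (SE 0.24, adjusted p = 0.043). They were 3 members called of 10, all higher in the P10 window, where 13.5% of all tested genes were called and 7.11% were called higher. Cry2 (chr2:92403646-92434043, minus strand), a repressor of the loop, read 42.5, 54.5 and 49.2 CPM in P2 baseline, 51.7, 61.7 and 128 CPM in P2 resected and 131, 33.3 and 44.9 CPM in P2 sham. It read 140, 125 and 118 CPM in P10 baseline, 152, 140 and 85.0 CPM in P10 sham, and 76.2, 108 and 74.97 CPM in P10 resected, so 7 of the 9 P2 window libraries were below every P10 window library and the other 2 were not. Arntl, whose protein is the DNA-binding partner of CLOCK, differed by 0.47 (SE 0.15, adjusted p = 0.053). Its 9 libraries ranged from 32.6 to 64.3 CPM with a median of 49.1 in the P2 window and from 50.3 to 84.7 CPM with a median of 60.1 in the P10 window. DESeq2 called Arntl as well (adjusted p = 0.016), making 4 members where it called 19.4% of genes. Per3 differed by 0.87 (SE 0.35, adjusted p = 0.11), Per1 by 0.88 (SE 0.42, adjusted p = 0.18) and Per2 by 0.64 (SE 0.31, adjusted p = 0.19). The REV-ERB beta gene Nr1d2, at 0.18 (SE 0.20, adjusted p = 0.63), and Cry1, at 0.15 (SE 0.14, adjusted p = 0.55), were the closest to 0 beside Clock. The median over the 10 genes was 0.71, beside -0.06 over all tested genes, and 9 of 10 were above 0. Nr1d1 and Dbp were called whichever library was left out, with adjusted p at most 0.0042 and 0.0091, although Dbp lost its call when the 5 libraries of lowest long-transcript level, described below, were left out together (1.66, adjusted p = 0.067). Cry2 lost its call in 15 of 18 such fits, all but those without P2 sham replicate 1, P2 resected replicate 3 or P10 sham replicate 3, with an adjusted p of at most 0.093.

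P2 sham replicate 1 stood apart from the rest of its group in Per1, Per2 and Per3, repressors of the loop. It held 50.9 CPM of Per1 against 10.1 and 7.24 CPM in the other 2 P2 sham libraries, 44.5 CPM of Per2 against 11.1 and 8.49 CPM, and 58.6 CPM of Per3 against 11.2 and 12.0 CPM. Without it, 6 members were called between the windows, where 13.1% of genes were called: Per1 (log2 difference 1.34, adjusted p = 0.023), Per2 (1.02, adjusted p = 0.011) and Per3 (1.28, adjusted p = 0.0054) joined Cry2, Nr1d1 and Dbp. The same library had the second highest level of long transcripts of the 18, as described next, and more immediate early transcripts than the other 2 P2 sham libraries. Its 8 immediate early genes summed to 7679 CPM against 4287 and 2991 CPM, with Nr4a1 at 837 CPM against 59.3 and 47.5 CPM. Of these genes, Ier2 was lowest in it, at 546 CPM against 845 and 591 CPM. Jun, at 719 CPM, lay between the others, at 729 and 549 CPM. The part of these in its Per levels was not tested. Other libraries stood out in some Per genes but not in Per2. P10 baseline replicate 1 read 80.9 CPM of Per1 against 20.9 and 13.1 CPM, and 60.5 CPM of Per3 against 28.6 and 17.7 CPM. P2 resected replicate 3 read 50.7 CPM of Per1 against 11.7 and 21.4 CPM. On leaving out each library in turn, the Per1 difference between the windows ran from 0.49 to 1.34.

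Clock (chr5:76209868-76304792, minus strand) encodes the partner of ARNTL and has the longest exon length of the members, 13727 bases. Its level was 36.6, 52.1 and 25.2 CPM in P2 baseline, 44.6, 6.27 and 24.998 CPM in P2 sham, and 45.5, 20.3 and 38.8 CPM in P2 resected. It was 51.9, 11.9 and 6.31 CPM in P10 baseline, 57.8, 11.8 and 17.9 CPM in P10 sham, and 36.6, 24.4 and 43.8 CPM in P10 resected. The highest and lowest library of a group differed by up to 8.22-fold, while the difference between the windows was -0.16 on the log2 scale (SE 0.42, adjusted p = 0.86). For each library a long-transcript level was taken as the median deviation of log2 CPM, from each gene's mean over the 18 libraries, of the 1607 tested genes with the longest exons, Clock and Per3 among them. It ran from -0.58 in P2 sham replicate 2 to 0.61 in P10 baseline replicate 1, and fell under -0.25 in 5 libraries, namely P2 sham replicate 2, P10 baseline replicates 2 and 3, and P10 sham replicates 2 and 3. Over the 18 libraries, as deviations from group means, Clock correlated with this level at r = 0.94 (exact within-group permutation, two-sided p = 0.00011, adjusted over 10 genes 0.0011; Spearman's rho 0.90, p = 0.00024), and at 0.88 without the 2 libraries farthest from the median.

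The other members went with this level less closely, and in both directions. Per1 (r = 0.72), Per3 (r = 0.72) and Cry2 (r = 0.60) were higher where long transcripts were higher, each with an adjusted exact permutation p of 0.045, although none passed by Spearman's rho (adjusted p = 0.060, 0.12 and 0.12). Dbp, which has the shortest exon length of the members at 2993 bases, was lower where long transcripts were higher (r = -0.67, adjusted exact permutation p = 0.0031; rho = -0.76, adjusted p = 0.0050; r = -0.77 without the 2 farthest libraries). Nr1d1 (r = -0.22), Arntl (r = 0.43), Cry1 (r = 0.23), Nr1d2 (r = 0.53) and Per2 (r = 0.45) did not pass, with adjusted exact permutation p from 0.17 to 0.49. Since 4 of the 5 libraries of lowest level were P10 baseline or P10 sham libraries, the age comparisons were fitted again in 2 ways chosen after these values were seen. With the level as a covariate, 7 members were called between the windows where 20.2% of all tested genes were called: Nr1d1 (1.38, adjusted p = 0.0015), Dbp (1.69, adjusted p = 0.00078), Cry2 (1.06, adjusted p = 0.0022), Per1, Per2, Per3 and Arntl, and 5 were called between the baselines, where 10.1% of genes were called. Without the 5 libraries, Nr1d1 was the 1 member called between the windows (1.496, adjusted p = 0.025), where 8.05% of genes were called, Cry2 read 0.83 (adjusted p = 0.099), and no member was called between the baselines or the sham groups, where 0.926% and 1.66% of genes were called. In those 2 comparisons 1 library was left in P10 baseline and in P10 sham and was taken to vary like the other groups, and the log2 differences were 1.99 for Nr1d1 and 2.60 for Dbp at baseline and 2.23 for Nr1d1 after sham surgery. Clock turned to 0.27 and 0.42 in these fits and was called in neither. Of the 5 libraries, P10 baseline replicates 2 and 3 also had the lowest shares of mitochondrial counts, 0.253% and 0.198%, against 0.442% to 1.07% in the other 16. The titles of those P10 baseline libraries alone end in the letter P, the meaning of which is not given. The part of RNA integrity, or of what that letter marks, in these measures and in the age differences was not tested.

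**Figure D3:**
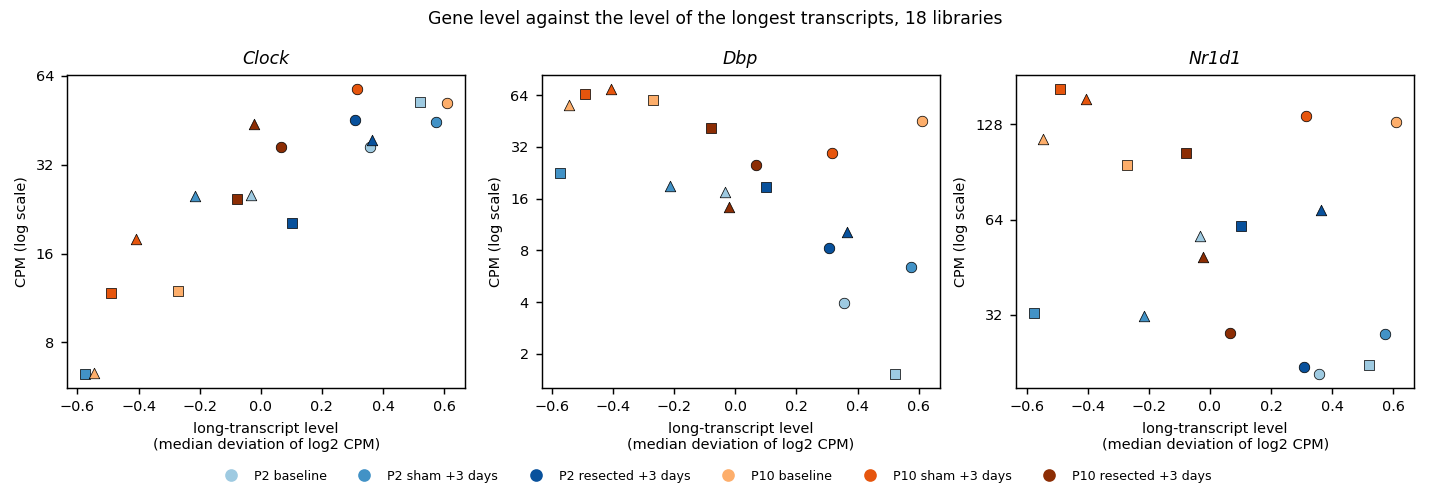
Level of Clock, Dbp and Nr1d1 in CPM (vertical axes, log scale) against the long-transcript level of the library (horizontal axis, median deviation of log2 CPM of the 1607 longest tested genes), with 1 point per library, colour for the group and marker shape for the replicate number. Clock rises with the level across all groups, Dbp falls with it, and Nr1d1 separates P10 baseline and P10 sham from the P2 groups at both ends of the axis.

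The comparisons of resected with sham-operated hearts ask whether the clock genes answer to injury 3 days after surgery. At P2 no member was called of 10, as for 0% of all tested genes, and none had an unadjusted p under 0.05, as 4.51% of genes did. The log2 differences ran from -0.36 to 0.72 with a median of 0.06, which was 0.79 without P2 sham replicate 1 and -0.19 without P2 resected replicate 3. At P10 no member was called either, again beside 0% of all tested genes, and Nr1d1 was the 1 member with an unadjusted p under 0.05, as 4.09% of genes had. Nr1d1 read 28.0, 104 and 48.6 CPM after resection against 136, 166 and 154 CPM after sham surgery, so the groups did not overlap, as for 3.04% of all tested genes in that direction. The log2 difference was -1.33 (SE 0.47, unadjusted p = 0.011 and adjusted p = 1.0 in the edgeR fit), and it stayed negative in all 18 fits that left out a library, from -1.99 to -0.99. In the same order of libraries the macrophage markers summed to 384, 985 and 61.0 CPM after resection and 82.0, 302 and 229 CPM after sham surgery. Their part in the Nr1d1 difference was not tested. Dbp differed by -1.02 (SE 0.66) and Cry2 by -0.54 (SE 0.42) at P10, each with an adjusted p of 1.0, and their libraries overlapped. Without the 5 libraries of lowest long-transcript level these differences were -0.15 and -0.84. DESeq2 called no member in either comparison, where it called 0.2% of genes at P2 and 0.206% at P10 (adjusted p = 0.51 for Nr1d1 at P10). The difference between the resection effects at P10 and P2 was -2.05 for Nr1d1 (SE 0.66, unadjusted p = 0.0061, adjusted p = 1.00 in the edgeR fit), and no member passed for this term, as for 0% of all tested genes. Nr1d1 was the 1 member with an unadjusted p under 0.05, as 2.88% of genes had, and DESeq2 called 0 members and 0.115% of genes. Without the filter on low counts edgeR called Nr1d1 between resected and sham-operated P10 hearts (-1.33, adjusted p = 0.031) and for the difference of the effects (-2.07, adjusted p = 0.019).

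The sham groups were also compared with the unoperated hearts of the age at surgery, a comparison in which 3 days of growth and the operation cannot be told apart. No member was called by edgeR at P2, as for 0% of all tested genes, or at P10, where 0.00618% were called. An unadjusted p under 0.05 was found for 2 members at P2, Cry1 and Per3, and for 0 at P10, where 7.6% and 7.4% of genes had one, and DESeq2 called 1 member at P2 and 0 at P10, where it called 1.01% of genes. Cry1, a repressor of the loop and the member with the smallest spread, read 26.7, 22.6 and 26.5 CPM in P2 baseline and 53.2, 43.3 and 50.9 CPM in P2 sham. The log2 difference was 0.96 (SE 0.25, unadjusted p = 0.0011, adjusted p = 0.37 in the edgeR fit), while DESeq2 called it (adjusted p = 0.0032, where 1.09% of genes were called). P2 sham and P2 baseline did not overlap for Cry1, as for 4.48% of all tested genes in that direction. In the P10 window Cry1 read 40.5, 43.6 and 53.7 CPM at baseline and 47.0, 27.1 and 35.4 CPM after sham surgery. The highest library of P2 baseline was under the lowest of all 15 others by a narrow margin, 26.7 against 27.1 CPM in P10 sham replicate 2. The share of genes set apart in that way was not counted. The age difference of Cry1 after sham surgery minus that at baseline was -1.29 (SE 0.35, unadjusted p = 0.0017, adjusted p = 0.50 by edgeR, 0.0087 by DESeq2, where 0.784% of genes were called). Cry1 was the 1 member with an unadjusted p under 0.05 for this term, as 6.6% of genes had, and edgeR called 0% of genes. Per3 differed by 1.66 between P2 sham and P2 baseline (SE 0.61, adjusted p = 0.57, or 0.036 without the filter on low counts), a value that was 0.43 without P2 sham replicate 1.

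The members were also set against each other within libraries, a measure that does not depend on scaling between libraries. The log2 ratio of Nr1d1 to Arntl counts in a library was -1.28, -1.21 and 0.80 in P2 baseline, -0.31, -0.14 and -0.62 in P2 sham, and -1.55, 0.55 and 0.41 in P2 resected. It was 1.13, 0.66 and 1.09 in P10 baseline, 0.68, 1.72 and 1.58 in P10 sham, and -1.27, 0.71 and -0.64 in P10 resected. Nr1d1 counts exceeded Arntl counts in all 6 libraries of P10 baseline and P10 sham and in 4 of the other 12, and both signs occurred in P2 baseline, P2 resected and P10 resected. The log2 ratio of Dbp to Arntl ran from -5.07 to -0.66 in the P2 window and from -2.40 to 0.44 in the P10 window. Dbp counts exceeded Arntl counts only in P10 baseline replicates 2 and 3 and P10 sham replicates 2 and 3. Within the P2 window this ratio was highest in P2 sham replicate 2. They are the 5 libraries of lowest long-transcript level. Exon length is 2993 bases for Dbp, 3077 for Nr1d1 and 7523 for Arntl. These ratios are given as a description with no test, and the part of that level in them was not tested.

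**Figure D4:**
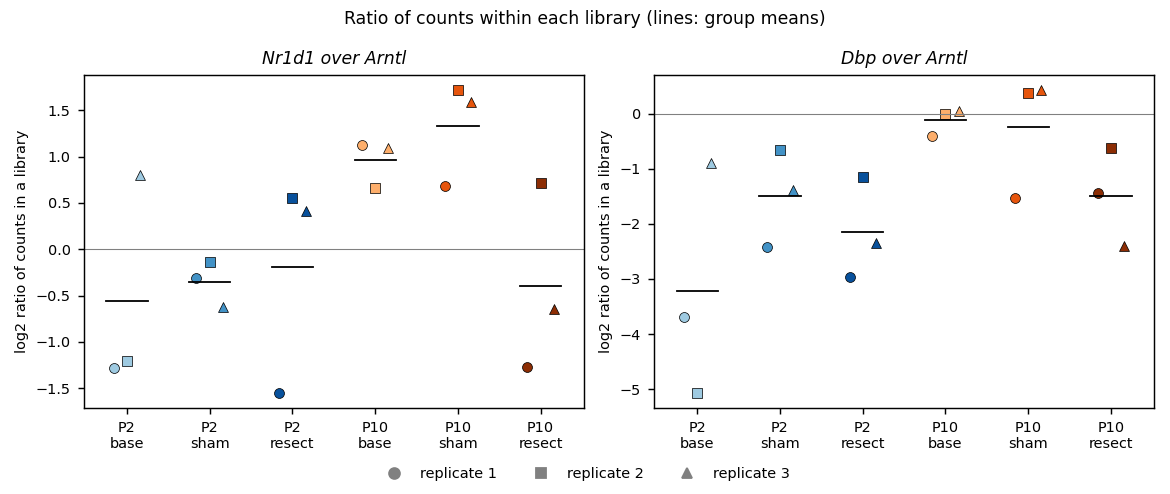
Log2 ratio of Nr1d1 to Arntl counts (left) and of Dbp to Arntl counts (right) within each library (vertical axes), by group (horizontal axes), with 1 point per library, marker shape for the replicate number and a line at the group mean. The 6 P10 baseline and P10 sham libraries lie between 0.66 and 1.72 on the left, and the P2 baseline, P2 resected and P10 resected groups hold libraries on either side of 0.

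Deviations of single libraries from their group means ask whether the genes of opposite limbs move against each other when group differences are set aside. Of 5 pairs chosen, Arntl went against Nr1d1 (Pearson's r = -0.56, exact within-group permutation p = 0.026, adjusted p = 0.058; rho = -0.58, p = 0.028, adjusted p = 0.037) and against Dbp (r = -0.63, exact p = 0.035, adjusted p = 0.058; rho = -0.63, adjusted p = 0.037). Arntl went with Npas2, whose protein can take the place of CLOCK in the dimer (r = 0.68, exact p = 0.023, adjusted p = 0.058; rho = 0.67, adjusted p = 0.037), and Nr1d1 with Dbp (r = 0.59, exact p = 0.054, adjusted p = 0.067; rho = 0.66, adjusted p = 0.037). Arntl and Per3 had r = -0.06 (exact p = 0.84; rho = -0.05). The pairs were chosen and do not cover each limb: Arntl had r of 0.28 with Nr1d2, 0.28 with Cry1, -0.04 with Per1, -0.11 with Per2, -0.07 with Cry2 and 0.56 with Clock, Dbp had r of -0.40 with Per1, -0.21 with Per2, -0.28 with Per3 and -0.37 with Cry2, and Nr1d1 had 0.31 with Per1, -0.09 with Per2, -0.14 with Per3 and 0.28 with Cry2, given with no test. Of the 5 pairs, none passed by Pearson's r and 4 of the 5 passed by Spearman's rho, all tests being two-sided over 18 libraries. Without the 2 libraries farthest from the median of the first gene, r was -0.45 (exact permutation p = 0.29) for Arntl with Nr1d1 and 0.59 (p = 0.11) for Nr1d1 with Dbp. It was -0.23 (exact permutation p = 0.55) for Arntl with Dbp and 0.31 (p = 0.34) for Arntl with Npas2, so the size of these last 2 rested on those libraries. The signs did not change. Removing the long-transcript level from both genes gave -0.52, -0.51 and 0.60 for Arntl with Nr1d1, Dbp and Npas2. Each had an adjusted p of 0.043 by permuting residuals within groups, which is approximate, since the level was not fitted again. The same step gave -0.58 for Arntl with Per3 and 0.61 for Nr1d1 with Dbp, each with an adjusted p of 0.065 by that approximate permutation.

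**Figure D5:**
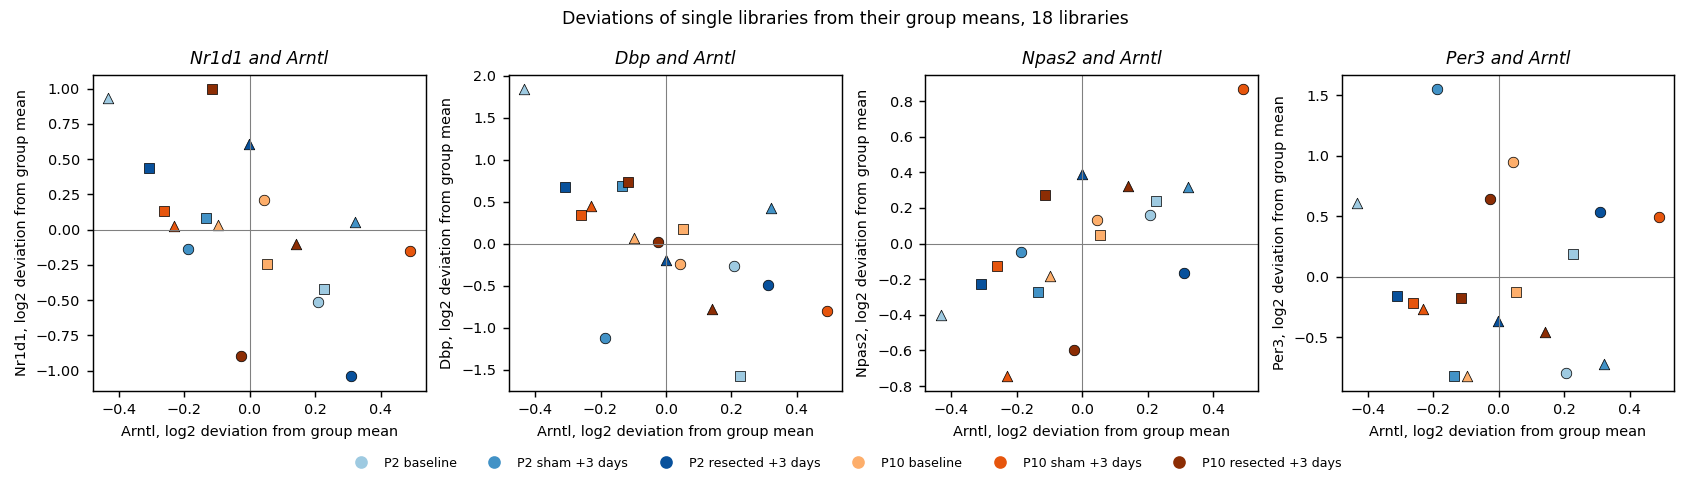
Deviation of each library from its group mean in log2 CPM for Arntl (horizontal axes) and for Nr1d1, Dbp, Npas2 and Per3 (vertical axes), with 1 point per library, colour for the group and marker shape for the replicate number. Points run from upper left to lower right for Nr1d1 and Dbp (r = -0.56 and -0.63), from lower left to upper right for Npas2 (r = 0.68), and show no slope for Per3 (r = -0.06).

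By the same measure, the genes most like each of 3 members were taken from 10651 tested genes with a mean of at least 5 CPM. Over the 18 libraries they were Calcrl (r = 0.90), Zfp760, Rap1gds1, 2610044O15Rik8 and Negr1 for Arntl, Hdac5 (r = 0.80), Klhl21, Ltbp3, Cdk16 and Lrrn2 for Nr1d1, and Tyms (r = 0.89), Znhit3, Sec22a, Washc1 and Aaas for Dbp. Among the 10651 genes, Npas2 ranked 88 in likeness to Arntl, the highest of the clock genes. Clock ranked 437, Nr1d2 2766 and Cry1 2785, while Per1, Per2, Per3 and Cry2 ranked from 5673 to 6185. Dbp ranked 101 in likeness to Nr1d1, and Nr1d1 ranked 1376 in likeness to Dbp. None of the 5 most alike genes of any of the 3 was on the clock lists. The points share library depth and the long-transcript level, so these r values are descriptions.

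The wider clock pathway was described with 21 further genes, of which 20 were tested. Between the windows 5 were called higher and 0 lower, where 7.11% of all tested genes were called higher and 6.39% lower, with a median log2 difference of 0.31 beside -0.06 over all tested genes. They were Tef, a PAR-bZIP relative of Dbp (0.91, SE 0.14, adjusted p = 0.00032), Npas2 (0.95, SE 0.21, adjusted p = 0.0057), Por, which encodes the electron donor of cytochrome P450 enzymes (0.74, SE 0.16, adjusted p = 0.0036), Usp2, a deubiquitinase (1.08, SE 0.32, adjusted p = 0.035), and Hlf, the remaining PAR-bZIP gene (0.96, SE 0.31, adjusted p = 0.047). Tef read 45.4, 66.5 and 70.9 CPM in P2 baseline and 214, 169 and 172 CPM in P10 baseline, and was the 1 pathway gene of 20 called between the baselines (1.602, SE 0.25, adjusted p = 0.0014), where 4.38% of all tested genes were called. The other pathway genes were not called between the windows, among them the repressor Ciart (0.45, SE 0.66, adjusted p = 0.71), listed at 0 in P2 sham replicate 2 and at most 5.28 CPM elsewhere, and Nfil3, a repressor at D-boxes (0.26, SE 0.32, adjusted p = 0.65). No pathway gene was called between ages after sham surgery or after resection, where 3.18% and 0.86% of all tested genes were called. None was called between resected and sham-operated hearts at either age or between sham and baseline at P2, beside 0% of all tested genes, or between sham and baseline at P10, beside 0.00618%. Tef, Npas2 and Por were called whichever library was left out, although Por was not called without the 5 libraries of lowest long-transcript level (0.69, adjusted p = 0.064), while Hlf lost its call in 14 of 18 such fits, all but those without P2 sham replicate 1, P2 baseline replicate 3, P10 baseline replicate 3 or P10 sham replicate 3 (adjusted p at most 0.096). Usp2 lost its call in 9 (adjusted p at most 0.074), namely without P2 baseline replicate 1 or 3, P10 baseline replicate 1, or replicate 1 or 2 of P2 resected, P10 sham or P10 resected.

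Per1 is also known to be induced by glucocorticoids, and immediate early genes by the handling of cells, so 2 lists of such genes were read beside the members. Of 5 glucocorticoid-responsive genes, 3 were called higher in the P10 window, as 7.11% of all tested genes were, namely Tsc22d3 (1.33, SE 0.26, adjusted p = 0.0023), Sgk1 (0.97, SE 0.31, adjusted p = 0.047) and Dusp1 (1.25, SE 0.17, adjusted p = 1e-04). Fkbp5 was called lower in P10 baseline than in P2 baseline (-1.88, SE 0.49, adjusted p = 0.034). Of 8 immediate early genes 4 were called higher in the P10 window, beside the same 7.11%, namely Fos, Jun, Junb and Egr1, with log2 differences from 0.69 to 1.37. The summed level of the 5 glucocorticoid-responsive genes ranged from 585 to 866 CPM over the P2 window and from 807 to 2619 CPM over the P10 window. Dusp1 made up most of it, with a mean of 1157 of 1453 CPM in P10 baseline, and 3 of the 5 genes had a fitted log2 difference below 0 between P10 and P2 baseline (median -0.49), where 1 was called higher and 1 lower, beside 2.71% and 1.68% of all tested genes. After sham surgery and after resection all 5 were above 0 (medians 1.55 and 1.86), with 0 and 1 called higher, beside 1.54% and 0.625% of all tested genes. That of the 8 immediate early genes ranged from 2991 to 7679 and from 6017 to 13309 CPM. Hearts of the later ages were digested for longer before sorting, so digestion time and age cannot be told apart, and the part of glucocorticoids in the age differences of the clock genes was not tested.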

How the data were processed

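RNA from sorted GFP-positive fibroblasts (18 libraries, 6 groups of 3) had been amplified with a SMARTer kit and sequenced as single reads. Per the submitters' processing notes and the study's methods, the authors trimmed reads with fastp 0.20.0, aligned them with STAR 2.7.0f to GRCm38.p6 and counted them per gene name without strand with featureCounts of Subread 1.6.4. The deposited values are raw counts per gene symbol, in 1 column per library.

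From these counts, genes were kept by edgeR's filterByExpr (minimum count 10, minimum total 15), scaled by TMM and tested with edgeR 4.0.16 (R 4.3.3) in 1 quasi-likelihood fit over all 18 libraries, with Benjamini-Hochberg adjustment over the 16170 kept genes and a threshold of 0.05. CPM uses the TMM-scaled library size, and CPM per kb divides by the merged exon length from GENCODE on GRCm38, a slightly older annotation than the one behind the counts. DESeq2 1.42.0 was an alternative. Deviations used log2 CPM with a prior count of 2, and pairs of genes were tested by all 46656 arrangements of libraries within groups in Python. The fit and the correlations were tested on simulated data. Promoter sequences are from RefSeq on GRCm38.p6.

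Named were all 10 members, pathway and stimulus genes called in a comparison, Npas2, Ciart, Tef and Nfil3 in any case, and the 5 genes most like Arntl, Nr1d1 and Dbp. The members and lists were chosen with earlier results of these data known. Alternatives were another scaling, no filter, DESeq2, only the compared groups, a replicate block, leaving out each library, and 2 fits on the long-transcript level added after seeing the data. The lowest count of a member in a library was 33.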

Additional observations from a re-analysis of the deposited data

How the results depend on the processing

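The direction of Nr1d1, Dbp and Cry2 between the windows held under every alternative run, while the number of members called moved. Between P10 and P2 baseline, 2 members and 4.38% of genes were called, against 1 (4.61% of genes) with library totals alone, 4 (4%) with no filter on low counts, 5 (10.5%) by DESeq2, 1 (2.14%) with the compared groups only, 5 (10.1%) with the long-transcript level as a covariate, 0 (0.926%) without the 5 libraries of lowest level, and 0 to 4 (1.53% to 7.04%) when each library was left out in turn. Between P10 and P2 sham, 1 (3.18%) was called, against 2 (3.15%) with no filter, 0 (1.66%) without the 5 libraries and 1 to 2 (1.81% to 3.66%) on leaving out a library. Between the windows, 3 (13.5%) were called, against 2 (15.8%) with library totals alone, 5 (9.54%) with no filter, 7 (20.2%) with the covariate, 1 (8.05%) without the 5 libraries and 2 to 6 (9.73% to 17.4%) on leaving out a library. With no filter 1 member was called in each of P10 resected versus sham, P2 sham versus baseline and the difference of the resection effects, where the main count was 0 and where 0.263%, 0.381% and 0.104% of genes were called. DESeq2 called 1 for P2 sham versus baseline and 1 for the difference of the age effects, against 0. Clock, at -0.16 between the windows, read 0.27 with the covariate, 0.42 without the 5 libraries and -0.61 to 0.071 on leaving out a library. Between the baselines Clock read -0.70 in the main fit, 0.46 without the 5 libraries and -2.05 to -0.25 on leaving out a library. The Nr1d1 difference after resection ran from -0.41 to 0.59 on leaving out a library. On leaving out a library, r ran from -0.66 to -0.39 for Arntl with Nr1d1, -0.81 to -0.44 for Arntl with Dbp, -0.24 to 0.13 for Arntl with Per3, 0.48 to 0.79 for Arntl with Npas2 and 0.39 to 0.69 for Nr1d1 with Dbp. Arntl with Per3 read 0.40 in the P10 window alone. Removing the long-transcript level gave -0.52, -0.51 and 0.60 for Arntl with Nr1d1, Dbp and Npas2. The cause of these shifts was not tested.

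Replicate numbers are those of the sample descriptions, while the titles carry other numbers. P2 sham, P10 baseline and P10 sham replicate 1 share a title number, and their deviations correlated at 0.29 to 0.38. Pairs that share other title numbers were not summarised. Replicate numbers were not taken to pair the samples, as no label says that they do. The deviations of the 45 pairs of libraries with the same replicate number in different groups correlated at -0.13 to 0.38 (median 0.05). Those of the 90 pairs with different replicate numbers correlated at -0.28 to 0.21 (median -0.02), and no threshold was set for these values. With the replicate number as a block, 3 members were called between the baselines, 1 between the sham groups and 4 between the windows. In these fits 1008, 636 and 2745 genes were called in all (6.23%, 3.93% and 17%), against 709, 515 and 2183 without the block. With the block, r for Arntl with Npas2 was 0.71 (adjusted p = 0.037 by permuting residuals within groups, which is approximate). Over all genes, 709, 515 and 139 were called between ages in unoperated, sham and resected hearts, against 1675, 1284 and 499 by DESeq2, 1155, 911 and 526 with no filter, 295, 125 and 332 with the compared groups only, 1641, 1258 and 439 with the covariate, and 174, 312 and 239 without the 5 libraries. Between the windows 2183 were called, against 3263 with the covariate.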
